A study of Mus musculus with 24 samples.

Results

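The enzymes that write and erase N6-methyladenosine (m6A) on RNA were followed here as transcripts, through the mouse maternal-to-zygotic transition and after knockdown of Ythdc1. The 10 genes were listed by symbol (Mettl3, Mettl14, Wtap, Virma, Zc3h13, Rbm15, Cbll1, Mettl16, Fto and Alkbh5) and each symbol was matched to its Ensembl gene, giving 10 of the 55471 genes in the count table. All 10 passed the filter on low counts in every comparison. The rule used no measured value.

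Oocytes and embryos came from wild-type B6D2F1 females aged 8 weeks, mated with B6D2F1 males for the embryo stages. SLIM-seq, an m6A immunoprecipitation followed by sequencing that was built for little RNA, gave 3 IP libraries and 3 input libraries (the same RNA batches sequenced without immunoprecipitation) for each of metaphase II oocytes (MII), late 1-cell embryos (L1C) and late 2-cell embryos (L2C). Separate RNA-seq of L2C embryos compared 3 libraries of Ythdc1 knockdown (KD), from zygotes injected with mRNA for the RNA-cutting enzyme Cas13d and 3 crRNAs to Ythdc1, with 3 control libraries (NC) from zygotes given Cas13d mRNA alone, so NC embryos carried the nuclease but no guide. Nothing in the labels says whether replicates came from separate collections, so p-values measure the spread between these libraries, which may be technical.

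Most m6A on mRNA is added by a nuclear complex. METTL3 is the catalytic subunit and METTL14 its partner that holds the substrate RNA. WTAP, VIRMA, ZC3H13, RBM15 and CBLL1 (also called HAKAI) bind this pair and place it on its targets. METTL16 is a separate methyltransferase that acts on U6 small nuclear RNA and on hairpins of Mat2a, the gene for the synthase of the methyl donor S-adenosylmethionine. FTO and ALKBH5 are the demethylases. Oocytes store mRNA that is translated and then degraded after fertilization, and the mouse genome is switched on in force at the 2-cell stage.

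On GRCm38, with the GENCODE M21 annotation, the core pair lay at chr14:52294841-52305128 for Mettl3 (ENSMUSG00000022160, minus strand) and chr3:123368297-123386108 for Mettl14 (ENSMUSG00000028114, minus). The regulatory subunits lay at chr17:12966796-12994169 for Wtap (ENSMUSG00000060475, minus), chr4:11485958-11550684 for Virma (ENSMUSG00000040720, plus), chr14:75284373-75344426 for Zc3h13 (ENSMUSG00000022000, plus), chr3:107325421-107333673 for Rbm15 (ENSMUSG00000048109, minus) and chr12:31484829-31499616 for Cbll1 (ENSMUSG00000020659, minus). Mettl16 lay at chr11:74770830-74828525 (ENSMUSG00000010554, plus), and the erasers at chr8:91313525-91668439 for Fto (ENSMUSG00000055932, plus) and chr11:60536381-60558512 for Alkbh5 (ENSMUSG00000042650, plus). SLIM-seq counts were assigned to the whole span of a gene, introns included. The span was 1.1 times the exon length for Rbm15 and 27.2 times for Fto, so intronic reads could weigh most in Fto. Mettl3 shared 1561 bp with Tox4 on the opposite strand, and Tox4 averaged 7.19, 9.71 and 361 CPM (counts scaled to a common library total) in the inputs of the 3 stages in order. Cbll1 shared 932 bp with the antisense gene Gm29542, which averaged 6.20, 6.58 and 41.4. Reads in those stretches could not be told apart by gene, and their part in the values was not tested.

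RefSeq promoter windows on GRCm38.p6, from 250 bases before to 50 bases after the start site, were found for 8 of the 10 genes. The 4 windows printed are those of Rbm15 and Mettl16, whose RNA was lower at L1C and then higher at L2C, and of Mettl3 and Alkbh5, whose RNA was lower at L2C. Capitals mark matches on either strand to 6 strings: the GC box GGGCGG, the CCAAT box, the ETS core CCGGAAG, the YY1 core ATGGCGG, the E-box CACGTG and the palindrome TCTCGCGAGA. The last is the longest run equal to its own reverse complement that stood in the windows of at least 2 of these genes.
Rbm15, chr3:107333240-107333539, minus strand: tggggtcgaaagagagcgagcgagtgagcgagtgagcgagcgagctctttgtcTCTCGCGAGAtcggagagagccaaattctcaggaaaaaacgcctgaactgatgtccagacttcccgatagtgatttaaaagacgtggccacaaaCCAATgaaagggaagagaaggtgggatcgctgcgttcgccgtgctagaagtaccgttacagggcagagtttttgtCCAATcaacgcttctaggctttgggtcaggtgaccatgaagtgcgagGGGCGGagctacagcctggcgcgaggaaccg
Mettl16, chr11:74770613-74770912, plus strand: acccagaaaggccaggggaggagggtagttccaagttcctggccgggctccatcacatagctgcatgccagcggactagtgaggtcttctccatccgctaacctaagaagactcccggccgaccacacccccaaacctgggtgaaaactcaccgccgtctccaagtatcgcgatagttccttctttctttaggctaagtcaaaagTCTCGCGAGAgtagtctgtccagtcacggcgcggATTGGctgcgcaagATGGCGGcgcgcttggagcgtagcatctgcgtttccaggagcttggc
Mettl3, chr14:52305075-52305374, minus strand: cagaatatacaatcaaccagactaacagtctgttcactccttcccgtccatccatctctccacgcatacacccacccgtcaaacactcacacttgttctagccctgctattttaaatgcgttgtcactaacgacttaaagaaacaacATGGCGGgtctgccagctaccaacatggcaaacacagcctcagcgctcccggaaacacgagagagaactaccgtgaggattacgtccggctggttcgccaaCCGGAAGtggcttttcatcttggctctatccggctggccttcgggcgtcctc
Alkbh5, chr11:60537433-60537732, plus strand: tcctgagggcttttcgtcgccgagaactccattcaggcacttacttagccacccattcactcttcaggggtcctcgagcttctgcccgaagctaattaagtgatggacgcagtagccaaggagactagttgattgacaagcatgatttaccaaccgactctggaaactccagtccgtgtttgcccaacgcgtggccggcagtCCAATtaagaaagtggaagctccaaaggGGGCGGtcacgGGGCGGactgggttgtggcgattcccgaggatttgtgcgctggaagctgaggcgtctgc
No match overlapped another in these 4 windows. The palindrome TCTCGCGAGA stood at base -197 from the start site in Rbm15 and at base -45 in Mettl16. It was not in the windows of the other 6 genes, and 0.466% of all 32851 promoter windows held it. Those 6 include Zc3h13, whose RNA was also lower at L1C and then higher at L2C. The string CCGGAAG, in 8.86% of all windows, stood in those of Mettl3, Zc3h13 and Cbll1, and ATGGCGG, in 4.05%, in those of Mettl3 and Mettl16. GGGCGG was in 35.7% of all windows, CCAAT in 37.4% and CACGTG in 7.15%, and no window of the 8 genes held CACGTG. The strings were chosen after the windows had been read, and a match is a description of these letters only.

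SLIM-seq libraries held 11107421 to 39739950 estimated counts and the complete RNA-seq libraries of the KD experiment 8696476 to 14500548. KD replicate 3 was deposited for 25739 genes only (5439131 counts), which include Mettl14, Virma and Rbm15. Those 3 genes were therefore compared over 3 KD and 3 NC libraries and the other 7 over 2 KD and 3 NC libraries. The stage markers followed the labels. The 8 oocyte transcripts (Zp1, Zp2, Zp3 and others) summed to 7920 to 9120 CPM in the MII inputs and 780 to 808 in the L2C inputs, and 7 transcripts of the 2-cell embryo (Zscan4c, Zscan4d, Zfp352 and others) to 29.6 to 36.0 and 408 to 553. The 8 cumulus and granulosa markers summed to 35.2 to 43.6 CPM in MII inputs, 27.8 to 32.4 in L1C inputs and 1.52 to 2.94 in L2C inputs. Of these, 7, 7 and 6 had counts, with Ptx3 at 0 at every stage, and the part of such cells in the stage differences was not tested.

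The first question was how the transcripts of the writers and erasers changed between stages in input RNA. From MII to L1C, 5 of the 10 were lower and 0 higher at an adjusted p under 0.05 (edgeR quasi-likelihood test, Benjamini-Hochberg over 19903 genes), where 24.3% of all genes tested were lower and 31.9% higher. At the next step, to L2C, 5 genes fell and 5 rose, against a background of 38.8% lower and 44.1% higher. From MII to L2C, 6 were lower and 4 higher, against 37.1% and 47.5%. The median log2 change of the 10 was -0.45, -0.50 and -1.17 in these comparisons, and that of all genes tested 0.16, 0.17 and 0.40. With this many genes called in every comparison, a call by itself did not set the 10 genes apart. CPM was taken after TMM scaling over the 9 inputs. CPM is a share of the library, so a change in the copies of a transcript and a change in the other RNA cannot be told apart.

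The core pair was lower at L2C. Mettl3, the catalytic subunit, measured 132, 107 and 110 CPM in the 3 MII inputs, 101, 86.7 and 110 at L1C and 16.9, 20.1 and 16.5 at L2C. MII and L1C overlapped, and every L2C library lay far below. Mettl3 fell 5.58-fold from L1C to L2C (log2 change -2.48 ± 0.15 SE, adjusted p = 8.9e-10), while the change from MII to L1C was -0.23 ± 0.14 (adjusted p = 0.17). With limma on the deposited TPM the change from MII to L1C was -0.51 and was called (adjusted p = 0.016). Mettl14, the RNA-binding partner, measured 31.4, 37.9 and 48.7 CPM in MII oocytes, 24.8, 26.3 and 23.1 in L1C embryos and 7.90, 6.62 and 5.67 in L2C embryos, with no overlap between stages. It fell at each step, by 0.67 ± 0.18 on the log2 scale to L1C (adjusted p = 0.0058) and by 1.88 ± 0.19 to L2C (adjusted p = 3.2e-07).

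The regulatory subunits did not move as a group. Virma, the scaffold subunit, fell at both steps: 150, 137 and 137 CPM in MII oocytes, 80.7, 59.3 and 64.7 in L1C embryos, and 22.5, 21.3 and 23.6 in L2C embryos. The fall was 2.07-fold to L1C and 6.26-fold from MII to L2C (log2 change -2.65 ± 0.14, adjusted p = 2.2e-10). Wtap, which links the core pair to the other subunits, was highest at L2C. It measured 156, 184 and 124 CPM in MII oocytes, 248, 220 and 140 in L1C embryos and 724, 475 and 516 in L2C embryos. Its libraries at MII and L1C overlapped, and it rose 2.82-fold from L1C to L2C (1.5 ± 0.22, adjusted p = 1.6e-05). The step from MII to L1C was 0.39 ± 0.21 (adjusted p = 0.13). Without L1C replicate 3, the lowest of that stage, it was 0.59 and passed (adjusted p = 0.024).

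Rbm15, an RNA-binding subunit, and Zc3h13, a zinc finger subunit, fell and then rose. Rbm15 measured 54.7, 62.3 and 70.5 CPM in MII oocytes, 33.5, 39.3 and 39.2 in L1C embryos and 191, 222 and 210 in L2C embryos, so each stage stood apart. Its rise from L1C to L2C was 5.56-fold (2.48 ± 0.14, adjusted p = 4.3e-10), the largest rise among the 10 genes. Zc3h13 measured 162, 177 and 183 CPM in MII oocytes, 74.4, 79.7 and 75.0 in L1C embryos and 117, 105 and 126 in L2C embryos. It fell 2.28-fold to L1C and rose 1.52-fold from there to L2C (0.60 ± 0.12, adjusted p = 0.00022), remaining below MII (-0.58 ± 0.11). The rise was not called with limma on the deposited TPM (log2 change 0.14, adjusted p = 0.16). Cbll1, a ring finger protein, measured 21.0, 25.1 and 21.4 CPM in MII oocytes, 28.7, 21.0 and 20.4 in L1C embryos and 95.2, 76.1 and 101 in L2C embryos. The first pair of stages overlapped (log2 change 0.06 ± 0.16, adjusted p = 0.80), and the rise to L2C was 3.88-fold (adjusted p = 5.3e-08).

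Mettl16, the U6 methyltransferase, went down and up as Rbm15 did: 36.8, 37.0 and 38.2 CPM in MII oocytes, 21.7, 20.7 and 20.1 in L1C embryos and 57.3, 50.9 and 60.7 in L2C embryos. It fell 1.79-fold to L1C (adjusted p = 6.7e-05) and rose 2.70-fold to L2C (adjusted p = 7.4e-08). Its difference between L2C and MII was 0.59 ± 0.12 (adjusted p = 0.00041), but with limma on the deposited TPM this was -0.12 (adjusted p = 0.19), so the order of MII and L2C for Mettl16 depended on the unit.

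The erasers held from MII to L1C and were lower at L2C. Fto measured 31.9, 26.4 and 24.5 CPM in MII oocytes, 26.1, 21.0 and 27.0 in L1C embryos and 4.73, 6.62 and 4.20 in L2C embryos. Alkbh5 measured 478, 560 and 613 CPM in MII oocytes, 479, 673 and 580 in L1C embryos and 157, 156 and 176 in L2C embryos. For each gene the MII and L1C libraries overlapped and the L2C libraries lay below both. The step from MII to L1C was -0.16 ± 0.18 for Fto (adjusted p = 0.48) and 0.07 ± 0.14 for Alkbh5 (adjusted p = 0.70). From L1C to L2C Fto fell 4.81-fold (-2.27 ± 0.20, adjusted p = 7.4e-08) and Alkbh5 fell 3.54-fold (-1.82 ± 0.14, adjusted p = 2.4e-08).

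**Figure D1:**
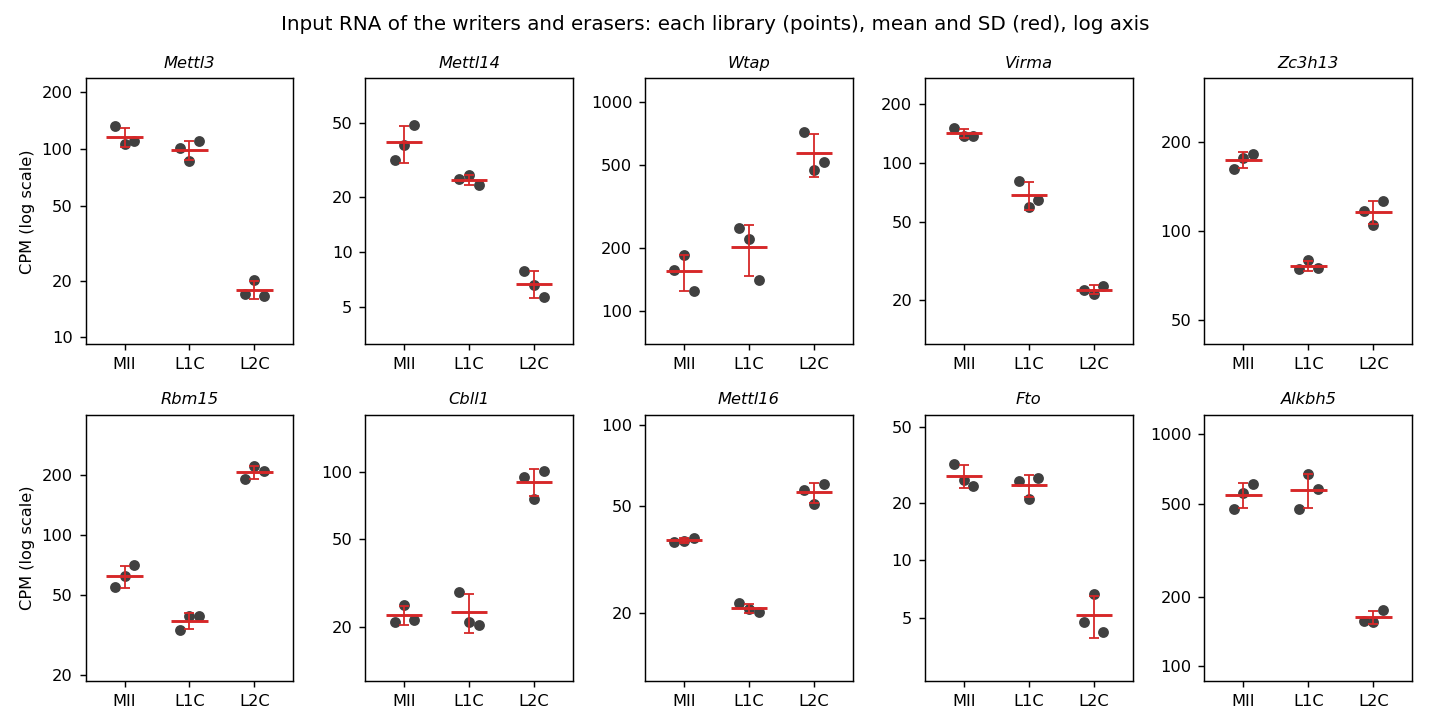
CPM of each gene in the 9 input libraries on log axes, with a panel per gene. Points are libraries, red bars the mean and SD of 3 libraries per stage. Mettl3, Mettl14, Virma, Fto and Alkbh5 sit lowest at L2C, where Mettl3 is at 16.5 to 20.1 CPM, and Wtap, Rbm15, Cbll1 and Mettl16 sit highest there, with Rbm15 at 191 to 222.

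Levels of different genes were compared as CPM per kb of exons. At MII, Alkbh5 was the highest at 91.9 ± 11.3 (SD, n = 3), followed by Zc3h13 (27.7 ± 1.74), Wtap (24.7 ± 4.84) and Mettl3 (22.9 ± 2.67), whose libraries overlapped with their neighbours in this order. Virma (19.8), Rbm15 (8.42), Cbll1 (5.62), Mettl14 (5.30), Mettl16 (2.70) and Fto (2.12) followed, and of these only Cbll1 and Mettl14 overlapped. At L1C the order was Alkbh5 (96.4), Wtap (32.4), Mettl3 (19.6), Zc3h13 (12.2), Virma (9.56), Cbll1 (5.83), Rbm15 (5.03), Mettl14 (3.34), Fto (1.89) and Mettl16 (1.51), with overlap between Cbll1 and Rbm15 alone. At L2C, Wtap led with 91.5 ± 21.4, followed by Rbm15 (28.0 ± 2.15), Alkbh5 (27.2 ± 1.91), Cbll1 (22.6 ± 3.23) and Zc3h13 (18.5 ± 1.71). Mettl16 (4.07), Mettl3 (3.51), Virma (3.15), Mettl14 (0.907) and Fto (0.398) were lower. Rbm15 and Alkbh5, Cbll1 and Zc3h13, Mettl16 and Mettl3, and Mettl3 and Virma overlapped as neighbours at L2C. Mettl3 thus stood above Mettl14 per kb of exons at all 3 stages, at 22.9 against 5.30 at MII and 3.51 against 0.907 at L2C. The deposited TPM is divided by the whole span, and by TPM the rank differed for 7 of the 10 genes in MII oocytes, 9 in L1C and 6 in L2C embryos. The order thus depended on the length used. Rbm15, whose span is nearly all exon, went from rank 6 to 3 at MII, Zc3h13 from 2 to 5 and Mettl3 from 4 to 2. At L1C Zc3h13 went from rank 4 to 7 and Virma from 5 to 8, and at L2C Rbm15 took rank 1 and Wtap rank 2.

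**Figure D2:**
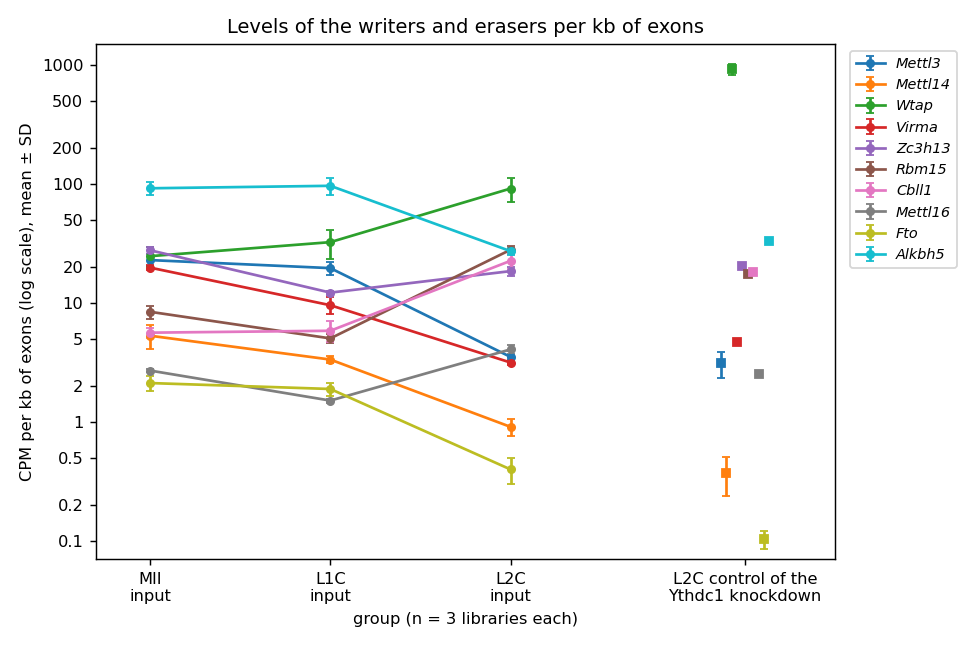
CPM per kb of exons (log axis, mean ± SD, n = 3 libraries each) for the 10 genes in the MII, L1C and L2C inputs and, as squares, in the L2C control embryos of the knockdown experiment. Alkbh5 leads at MII with 91.9, Wtap leads at L2C with 91.5, and Fto is lowest at L2C with 0.398.

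Over the 9 inputs, the genes whose log2(CPM + 1) followed Mettl3 most closely among 14867 other protein-coding genes with a mean of at least 10 counts were Tmtc4 (Pearson r = 0.9992), Zbtb46 (0.9988) and Ntn4 (0.9987). For Mettl14 they were Lgsn (0.9959), Srgn (0.9946) and Mrps5 (0.9944). Among the writers and erasers, Mettl3 correlated with Fto at 0.996, with Alkbh5 at 0.960, with Mettl14 at 0.953 and with Virma at 0.936, and with Cbll1 at -0.984. These coefficients describe 9 libraries in 3 stages that share their depth and scaling.

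The second question was whether these RNAs were enriched in the m6A immunoprecipitate. The log2 ratio of IP to input is relative: a negative value says that a gene took a smaller share of the IP than of the input libraries, and not that its RNA lacked m6A. In the MII libraries 2 of the 10 genes were higher in IP (17.7% of 21950 genes tested) and 6 lower (21.0%). At L1C 2 were higher (15.8%) and 6 lower (18.2%), and at L2C 1 was higher (22.0%) and 2 lower (22.0%). With thresholds taken from the study's rule for m6A-tagged RNA (ratio above 1, unadjusted p under 0.05 and more than 1 count in every input), but applied to the edgeR fit in place of DESeq2 and without the study's further condition on replicates, the MII libraries tagged 2 of the 10 genes (Mettl14 and Wtap), the L1C libraries 3 (those and Mettl16) and the L2C libraries 2 (Wtap and Cbll1), where 19.2%, 18.6% and 23.9% of all genes tested were tagged. Scaling by library size alone, which moved the median log2 ratio of all genes from 0.00, 0.07 and 0.09 to 0.20, 0.37 and 0.34, gave 4 higher and 6 lower at MII (26.2% and 16.2% of all genes tested), 4 higher and 3 lower at L1C (29.0% and 11.9%), and 3 higher and 2 lower at L2C (33.3% and 16.0%). At an unadjusted p under 0.05, 2 were higher and 4 lower at L2C, against 26.5% and 24.7% of all genes, and DESeq2 gave 2 higher and 3 lower there, against 18.3% and 18.8% of the 26376 genes it gave an adjusted p. CPM in this section is scaled over all 18 SLIM-seq libraries together, so input values differ from those above.

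Wtap was the only gene of the 10 called higher in IP at every stage under TMM scaling. Scaling by library size alone also called Cbll1 at each stage, but relative to the shifted median of all genes its ratio was 0.31, 0.08 and 0.27, where that of Wtap was 1.25, 1.51 and 0.87. Its IP libraries measured 404, 372 and 517 CPM at MII against 191, 221 and 147 in the inputs, 564, 801 and 697 against 284, 250 and 158 at L1C, and 1290, 741 and 1190 against 701, 450 and 500 at L2C. IP and input did not overlap at any stage, and the log2 ratios were 1.21 ± 0.24 (adjusted p = 0.00047), 1.58 ± 0.24 (4.7e-05) and 0.97 ± 0.24 (0.0030). Mettl14 was enriched at MII, with 92.6, 78.6 and 106 CPM in IP against 38.4, 45.5 and 57.9 in input (0.97 ± 0.17, adjusted p = 0.00014). At L1C its ratio was 0.54 ± 0.17 (adjusted p = 0.019), a call lost without L1C input replicate 3 (0.48, adjusted p = 0.078) or without L1C IP replicate 3 (0.40, adjusted p = 0.11). At L2C the ratio was 0.11 ± 0.18, and IP (6.44, 8.28 and 6.37 CPM) and input (7.65, 6.27 and 5.49) overlapped.

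Rbm15 was the most depleted of the 10 genes in IP at MII and L2C. It measured 21.8, 18.8 and 23.4 CPM in IP against 66.9, 74.8 and 83.9 in input at MII, 19.1, 19.6 and 28.1 against 38.4, 44.7 and 44.0 at L1C, and 58.7, 64.9 and 61.5 against 185, 211 and 203 at L2C. IP lay below input in every library of each stage, by 1.82 ± 0.15, 0.92 ± 0.14 and 1.69 ± 0.14 on the log2 scale (adjusted p = 9.7e-09, 4.9e-05 and 3.2e-08). Zc3h13 was also depleted at each stage, with ratios of -0.63, -0.54 and -0.58 (SE 0.11 for each). Its L1C call was not made when scaled by library size alone (-0.24, adjusted p = 0.085), but relative to the median of all genes the L1C ratio was -0.61 under both scalings.

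Alkbh5, Fto, Virma and Mettl3 were lower in IP at MII and L1C, and none of these 4 passed the threshold as lower at L2C in the fit of all 18 libraries. Alkbh5 measured 347, 315 and 341 CPM in IP against 585, 672 and 729 in input at MII, 306, 288 and 383 against 549, 765 and 651 at L1C, and 120, 131 and 124 against 152, 148 and 171 at L2C. Its ratio was -0.99 ± 0.13, -1.01 ± 0.13 and -0.33 ± 0.13 (adjusted p = 6.7e-06, 8.1e-06 and 0.052). At L2C it was called lower with DESeq2 (-0.33, adjusted p = 0.041), without the filter on low counts (-0.37, 0.044), with the L2C libraries fitted alone (-0.36, 0.029) and in 7 of 18 fits that left out 1 library. Fto gave -0.91 ± 0.19, -0.82 ± 0.19 and 0.09 ± 0.20, the first 2 past the threshold (adjusted p = 0.00070 and 0.0020), and in all its L2C libraries lay at 3.84 to 6.27 CPM. Virma gave -0.86 ± 0.12, -0.43 ± 0.12 and 0.15 ± 0.12 (adjusted p = 1.1e-05, 0.010 and 0.33). The L1C call of Virma was lost without L1C input replicate 1 (-0.28, adjusted p = 0.070) or L1C IP replicate 3 (-0.33, adjusted p = 0.060). With library size alone it was -0.12 (adjusted p = 0.43), and at L2C that scaling called Virma higher (0.41, adjusted p = 0.0087). Relative to the shifted median of all genes these ratios of Virma were -0.49 and 0.07. Mettl3 gave -0.82 ± 0.15, -0.65 ± 0.14 and -0.33 ± 0.15 (adjusted p = 0.00015, 0.0017 and 0.082), and its L1C call was not made with library size alone (-0.34, adjusted p = 0.056), while relative to the median of all genes the L1C ratio was -0.72 under TMM and -0.71 under that scaling. For Cbll1 (0.27, 0.14 and 0.35) and Mettl16 (0.07, 0.26 and -0.08) no stage passed. Cbll1 passed at MII with the libraries of that stage fitted alone (0.32, adjusted p = 0.042). With library size alone Cbll1 was called higher at each stage (0.50, 0.44 and 0.61) and Mettl16 at MII (0.31) and L1C (0.56), calls to be read against the shifted median under that scaling. DESeq2 called Cbll1 at L2C (0.35, adjusted p = 0.049) and Mettl16 at L1C (0.30, adjusted p = 0.016).

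**Figure D3:**
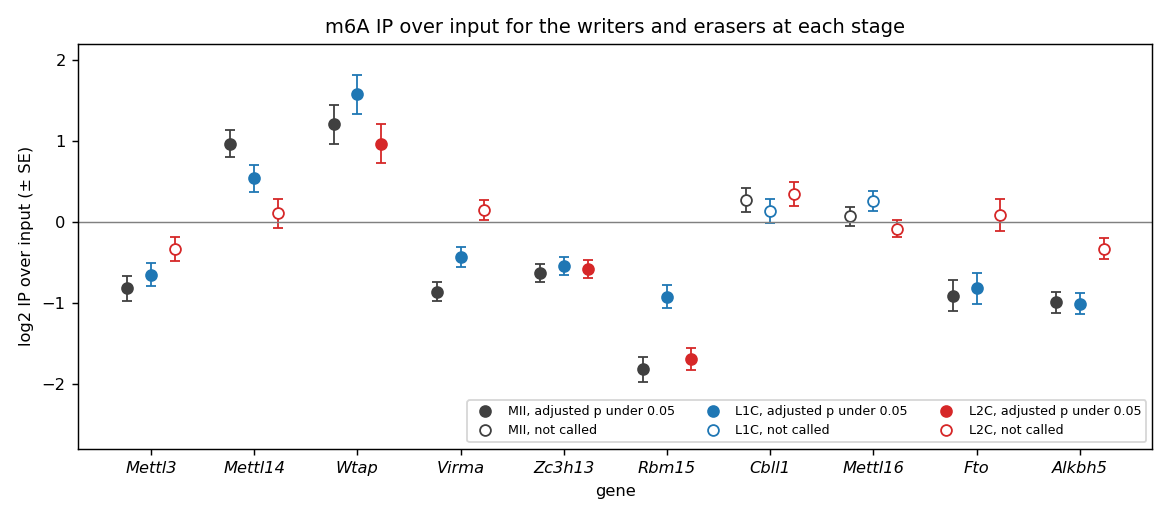
Log2 ratio of IP to input (± SE, 3 IP and 3 input libraries per stage) for each gene at MII (black), L1C (blue) and L2C (red). Filled points passed an adjusted p of 0.05. Wtap lies at 0.97 or above at all 3 stages, Rbm15 at -0.92 or below, and Virma, Fto and Alkbh5 sit nearer to 0 at L2C than at MII.

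A change of the ratio between stages was tested as its own term. Between MII and L1C, 1 of the 10 genes gained (3.13% of all genes) and 0 lost (4.21%). Rbm15 was the gene that gained, by 0.89 ± 0.20 on the log2 scale (adjusted p = 0.0086). Between L1C and L2C, 3 gained (5.0% of all genes) and 1 lost (4.47%). Between MII and L2C, 3 gained (11.1%) and 1 lost (9.21%). Virma gained 1.02 ± 0.17 from MII to L2C (adjusted p = 0.00032), Fto 0.99 ± 0.27 (0.014) and Alkbh5 0.66 ± 0.19 (0.016), and Mettl14 lost 0.86 (± 0.25, adjusted p = 0.019). The call of Alkbh5 was lost without MII input replicate 3 (0.58, adjusted p = 0.053). That of Mettl14 was lost without MII input replicate 1, MII IP replicate 3, L2C input replicate 1 or L2C IP replicate 3 (adjusted p = 0.050 to 0.058). That of Fto was lost when only the libraries of both stages were fitted (0.81, adjusted p = 0.065).

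Between L1C and L2C, the same 3 genes gained: Virma by 0.58 ± 0.17 (adjusted p = 0.041), Fto by 0.90 ± 0.27 (0.043) and Alkbh5 by 0.68 ± 0.19 (0.027). These 3 calls lay near the threshold. They were lost when only the libraries of both stages were fitted (adjusted p = 0.22, 0.12 and 0.13), and that of Virma also with library size alone (0.53, adjusted p = 0.051) and without the filter on low counts (0.54, adjusted p = 0.14). Leaving out 1 library at a time ended the call of Virma in 11 of 18 cases (adjusted p up to 0.12), of Fto in 12 (up to 0.12) and of Alkbh5 in 6 (up to 0.073). Rbm15 lost 0.77 (± 0.20, adjusted p = 0.020) over the same step, and this call was lost without L1C input replicate 1 (-0.71, adjusted p = 0.050) or L1C IP replicate 3 (-0.57, adjusted p = 0.060). In input RNA at this step Virma, Fto and Alkbh5 fell and Rbm15 rose. Comparisons that share a stage share its libraries.

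The third question was how the writers and erasers responded to loss of Ythdc1, the nuclear m6A-binding protein, in L2C embryos. The knockdown used these 3 crRNAs, printed because they define the KD libraries:
Ythdc1 crRNA 1: cctcattctcagtgttgttgccc
Ythdc1 crRNA 2: aattcatcatcctgttctggtac
Ythdc1 crRNA 3: ctctcagaaccatctggtgtagg
Each is the reverse complement of a coding stretch of 23 bases of Ythdc1 on the plus strand. They lay at chr5:86817026-86817048 (exon 5), chr5:86815667-86815689 (exon 3) and across the junction of exons 4 and 5, where the match starts at 86816772 and ends at 86816908 with the intron between. The longest run of bases they shared with a sense transcript of the 10 genes was 9 (Mettl14), 11 (Mettl3) and 10 (Mettl14). Ythdc1 measured 523, 541 and 519 CPM in KD and 1080, 1100 and 994 in NC, a 2.01-fold fall (log2 change -1.0 ± 0.06, adjusted p = 1.3e-10).

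Of the 10 genes, 6 were higher in KD, 3 lower and 1 not called, with Fto among the lower although it passed the filter on low counts only through NC. In the table with 3 KD libraries 33.5% of 7433 genes tested were higher and 37.4% lower, and in the complete annotation with 2 KD libraries 30.5% of 17074 were higher and 36.4% lower. Most genes tested were therefore called, and a call alone did not mark these 10. With the study's thresholds on the edgeR fit (unadjusted p under 0.05 and a log2 change above 1 in size), 1 of the 10 was higher (Mettl14) and 1 lower (Fto), where 14.7% and 22.5% of genes passed in the table and 14.4% and 24.5% over the complete annotation. CPM from the table counts only the genes it lists and is not on the same scale as CPM over the complete annotation.

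Among the writers, Mettl14 changed most. It measured 18.4, 21.7 and 17.8 CPM in KD and 5.32, 5.98 and 10.1 in NC, without overlap, a 2.78-fold rise (1.48 ± 0.25, adjusted p = 3.8e-05) on 77, 78 and 92 counts against 30, 30 and 35. Virma measured 117, 114 and 122 CPM against 82.7, 87.3 and 92.1 and rose 1.35-fold (adjusted p = 0.00036). Rbm15 measured 296, 250 and 276 CPM against 353, 331 and 335 and fell 1.24-fold (adjusted p = 0.0011). These are the 3 genes with all 6 libraries.

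Over 2 KD and 3 NC libraries of the complete annotation, Mettl16 measured 69.5 and 62.2 CPM in KD against 34.2, 35.8 and 35.0, a 1.88-fold rise (0.91 ± 0.10, adjusted p = 1.3e-06). Cbll1 measured 98.0 and 101 CPM against 74.8, 74.7 and 68.3 (1.37-fold, adjusted p = 0.00043). Zc3h13 measured 160 and 151 CPM against 127, 132 and 122 (1.22-fold, adjusted p = 0.0068), a call lost without KD replicate 1 (0.25, adjusted p = 0.075). In these genes the KD libraries lay above every NC library. Mettl3 measured 23.4 and 20.7 CPM against 12.1, 15.4 and 19.7 and rose 1.42-fold (0.51 ± 0.17, adjusted p = 0.017). Its call was lost without KD replicate 1 (0.42, adjusted p = 0.11), NC replicate 1 (0.34, adjusted p = 0.091) or NC replicate 2 (0.49, adjusted p = 0.053). Wtap measured 5420 and 5100 CPM against 6030, 6110 and 5080. Its groups overlapped and its log2 change was -0.13 ± 0.07 (adjusted p = 0.15). It passed without NC replicate 3 (-0.22, adjusted p = 0.00022), with library size alone (-0.20, adjusted p = 0.015) and without the filter on low counts (-0.15, adjusted p = 0.011).

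Among the erasers, Alkbh5 was called lower in KD, and Fto had 0 counts there. Alkbh5 measured 171 and 158 CPM in KD against 201, 205 and 192 in NC, a 1.21-fold fall (-0.28 ± 0.08, adjusted p = 0.0079) that was lost without KD replicate 2 (-0.21, adjusted p = 0.13). Fto had 0 and 0 counts in the KD libraries and 23, 18 and 10 in NC (1.57, 1.38 and 1.11 CPM). The NC mean of Fto (1.35 CPM) was 4.21 times a floor of 3 counts in the shallower KD library (0.321 CPM). With 0 counts in KD, Fto passed the filter on low counts only through the NC libraries, so its call adds no support. That floor covers counting error only, as reads without molecular identifiers are not independent molecules. Both stage-marker lists moved with the knockdown: the 8 oocyte transcripts summed to 740 to 816 CPM in KD and 1560 to 1700 in NC, and the 7 transcripts of the 2-cell embryo to 434 to 481 and 1060 to 1100, with counts for every marker. The cumulus and granulosa markers summed to 0.107 to 0.555 CPM in KD and 1.30 to 2.30 in NC, and 4 and 3 of the 8 had counts. The part of these differences in the changes of the 10 genes was not tested.

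**Figure D4:**
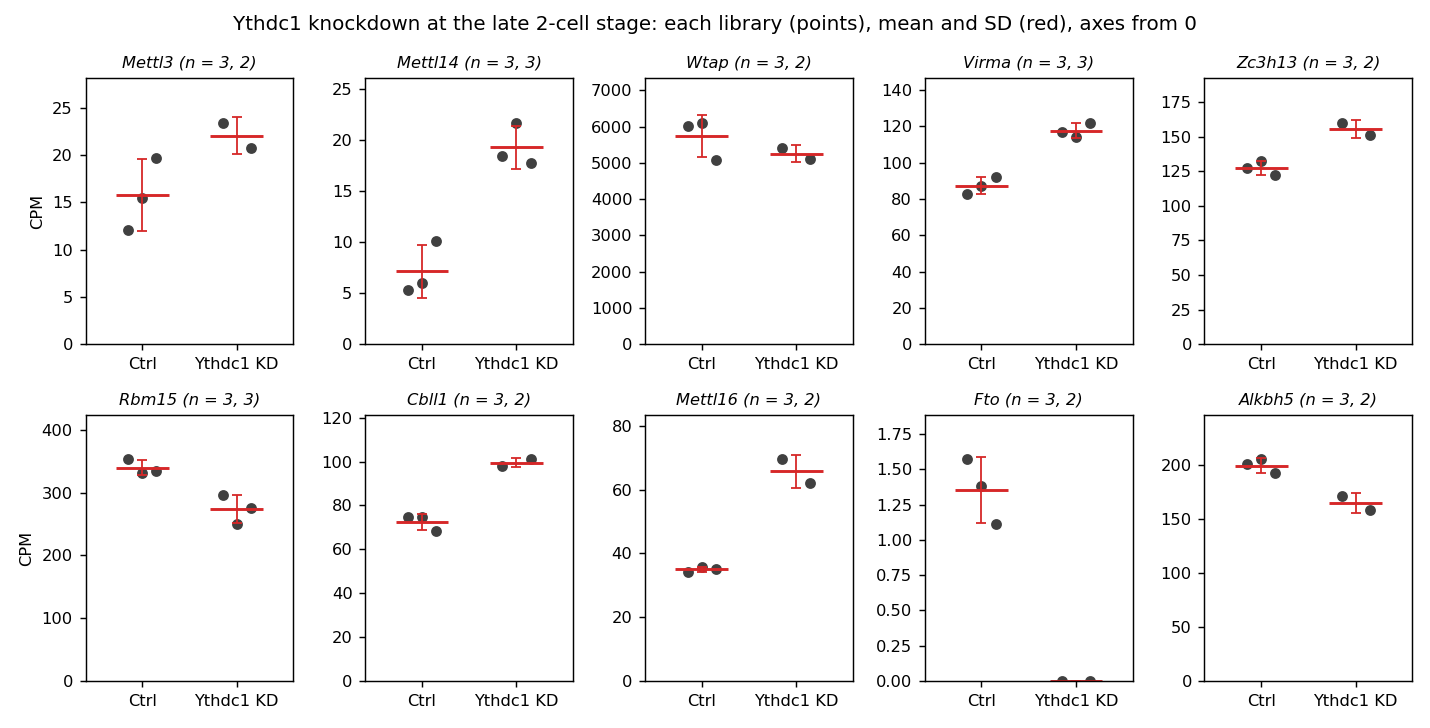
CPM of each gene in control (NC, marked Ctrl) and Ythdc1 KD libraries at L2C, linear axes from 0. Points are libraries and red bars the mean and SD, with n for each group above the panel. Mettl14, Virma and Rbm15 are scaled within the table of 25739 genes and the others over the complete annotation. Mettl14 rises from 5.32 to 10.1 CPM in control to 17.8 to 21.7, and Fto is at 0 in both KD libraries.

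Wtap stood apart in level between the experiments. In NC embryos it averaged 5740 CPM, and in the L2C inputs of SLIM-seq 572, a ratio of 10.0. The ratio lay between 0.261 (Fto) and 1.49 (Virma) for the other 9 genes. The experiments differ in embryo handling, library and counting (exons against whole spans), and these cannot be told apart. Wtap was also the only gene of the 10 with long copies elsewhere in GRCm38, taken as blastn matches of at least 200 bp and 93% identity outside its locus. It had 5: chr8:3841081-3842588 (96.6% identity, at the gene Gm7381), chr2:179177416-179178902 (99.5%, at Gm14292), chr17:82354695-82355391 (93.3%), chr10:47323986-47324583 (93.7%) and chr4:4333675-4334081 (94.2%). Gm14292 had 76, 38.7 and 94 estimated counts in the L2C inputs and 313 to 559 counts in NC. Levels of Wtap are therefore uncertain, and the part of the copies in the difference was not tested.

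The pathway was extended by 11 genes: the partner Rbm15b, other RNA adenosine methyltransferases and their cofactors, and enzymes that make the methyl donor or clear its product. Of the 10 tested in inputs, 2 were lower and 1 higher from MII to L1C, 5 lower and 4 higher from L1C to L2C, and 5 lower and 3 higher from MII to L2C. Ahcy was among the lower in both comparisons with L2C, although it passed the filter on low counts only through MII and L1C. Its calls therefore add no support. The shares of all genes tested were 24.3% lower and 31.9% higher, 38.8% and 44.1%, and 37.1% and 47.5%. Mat2a, the hairpin target of METTL16, measured 134, 131 and 137 CPM in MII oocytes, 107, 95.5 and 90.2 in L1C embryos and 289, 263 and 309 in L2C embryos. It fell and then rose (2.94-fold to L2C, adjusted p = 1.3e-08), as Mettl16 did. In KD Mat2a rose 2.01-fold, from 379, 411 and 410 to 769, 777 and 870 CPM (adjusted p = 3.9e-10).

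Pcif1, which methylates the first adenosine of capped mRNA, was the 1 pathway gene whose fall in IP ratio from MII to L2C passed the threshold, as that of Mettl14 did. Its ratio of 0.54 ± 0.16 in MII oocytes stood against 0.12 ± 0.16 in L1C and -0.65 ± 0.16 in L2C embryos, and it lost 1.19 (± 0.23, adjusted p = 0.00094) from MII to L2C. Pcif1 fell 1.69-fold in KD (adjusted p = 1.0e-05). Ahcy, which clears S-adenosylhomocysteine, was at 1.90 CPM or below in every input. Rbm15b was listed at 0 in all 9 inputs and at 8.00, 10.6 and 12.4 CPM in the MII IP libraries, so no fold is given. By exon counts it measured 24.2 and 23.8 CPM in KD and 30.7, 31.1 and 32.5 in NC (adjusted p = 0.0068). Of the 10 pathway genes other than Rbm15b, 2 were higher and 3 lower in IP at MII (17.7% and 21.0% of all genes tested). At L1C 3 were higher and 0 lower (15.8% and 18.2%), and at L2C 3 were higher and 1 lower (22.0% and 22.0%). The higher at L2C included Ahcy, on 19, 0 and 15.4 estimated counts in IP against 2, 0 and 2 in input. Its call there adds no support. In KD, where Ahcy was not tested, 5 of the 10 pathway genes were higher and 3 lower, against 30.5% and 36.4% of all genes over the complete annotation and 33.5% and 37.4% in the table with 3 KD libraries.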

How the data were processed

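SLIM-seq libraries were quantified by the authors with kallisto on GRCm38, and the deposited estimated counts and TPM cover whole gene spans, introns included. They were rounded to whole numbers. RNA-seq libraries of the knockdown were trimmed with Trimmomatic, aligned with HISAT2 and counted with featureCounts over exons, with no strand option in the command that the file headers hold, and the deposited counts are not normalized. The study's methods describe oligo-dT priming (the labels name a stranded total RNA kit), and with oligo-dT mRNA with a short poly(A) tail may be counted less.

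Groups and replicates came from sample titles. Main tests were edgeR 4.0.16 quasi-likelihood fits (R 4.3.3) with TMM, filterByExpr and Benjamini-Hochberg adjustment over all genes tested, called at an adjusted p of 0.05: the 9 inputs together, all 18 SLIM-seq libraries for IP ratios, and KD against NC. SE is the log2 change over the root of F. DESeq2 1.42.0 and limma 3.58.1 on log2(TPM + 1) and log2(TPM + 0.1), at a mean TPM of at least 0.1, were alternatives, beside scaling, filter, replicate block and omission of each library. Depth bears on the low genes: Fto had 10 to 23 counts in NC libraries. Replicates differed beyond sampling noise (chi-square per degree of freedom 2.77 to 41.5 over 24 pairs). Scripts were tested on simulated data. Copies were sought with blastn 2.17.0.

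All 10 genes are named, with Ythdc1 as the check of the knockdown, 4 of the 11 pathway genes, and for Mettl3 and Mettl14 the 3 genes most like each. Members and lists were chosen with earlier results of these data known.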

Additional observations from a re-analysis of the deposited data

Results flagged for a closer look

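These results were flagged because the IP ratio of a gene differed between stages in a test of the difference itself (edgeR interaction term, adjusted p under 0.05). From MII to L1C, Rbm15 changed by 0.89 on the log2 scale. From L1C to L2C, Rbm15 changed by -0.77, Virma by 0.58, Fto by 0.90 and Alkbh5 by 0.68. From MII to L2C, Virma changed by 1.02, Fto by 0.99, Alkbh5 by 0.66 and Mettl14 by -0.86. Rbm15 was the gene whose ratio went up and came back, from -1.82 at MII to -0.92 at L1C and -1.69 at L2C, and its change from MII to L2C was 0.12 ± 0.20 (adjusted p = 0.75).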

How the results depend on the processing

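In inputs, the counts of genes lower and higher kept within 1.5 times of the main ones under every alternative run, except that 1 gene (Wtap) was higher from MII to L1C without the filter on low counts (0.34, adjusted p = 0.045). Leaving out 1 library at a time gave 0 to 1 higher and 5 to 5 lower there, 5 to 5 and 5 to 5 from L1C to L2C, and 4 to 4 and 6 to 6 from MII to L2C. Fitting all 18 libraries together, an alternative chosen after seeing the data, kept every input call and moved the L2C against MII change of Mettl16 from 0.59 to 0.27 and that of Zc3h13 from -0.58 to -0.91, and the L2C against L1C change of Zc3h13 from 0.60 to 0.36. With limma on deposited TPM, Mettl16 was reversed between L2C and MII, at -0.12 with a pseudocount of 1 and -0.14 with 0.1, and Mettl3 was lower from MII to L1C (-0.51, adjusted p = 0.016 and 0.030). The cause was not tested.

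For IP against input, library size alone gave 4 genes higher at MII, 4 higher and 3 lower at L1C and 3 higher at L2C, where 26.2%, 29.0% and 11.9%, and 33.3% of all genes were called. At L2C, DESeq2 gave 2 higher (18.3% of all genes), and an unadjusted p of 0.05 gave 2 higher (26.5%) and 4 lower (24.7%). Without 1 library at a time the counts were 2 to 2 higher and 6 to 6 lower at MII, 1 to 2 and 5 to 6 at L1C, and 1 to 2 and 2 to 3 at L2C. For the change of the ratio they were 1 to 2 gained and 0 to 0 lost from MII to L1C, 0 to 3 and 0 to 1 from L1C to L2C, and 2 to 3 and 0 to 1 from MII to L2C. From L1C to L2C, 2 genes lost without the filter on low counts (Rbm15 and Wtap), and 0 gained when only the libraries of both stages were fitted.

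Replicate numbers gave no clear pairing of the libraries. Deviations of same-numbered IP and input libraries correlated at -0.32 to 0.19 and of KD and NC at -0.04 to 0.04. Of 9 IP libraries, 2 correlated best with the input of their own number. With 3 libraries per group, these values cannot show whether same-numbered libraries shared RNA. With a replicate block, 2 genes were higher in IP at L2C (Cbll1 added) and 0 gained from L1C to L2C (adjusted p = 0.081 for Virma, 0.11 for Fto and 0.07 for Alkbh5), and Wtap was lower in KD (-0.21, adjusted p = 0.00019). The block moved no other count of calls by over 1.5 times.

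In KD, the study's thresholds (unadjusted p under 0.05 and a log2 change above 1 in size), applied to the edgeR fit in place of DESeq2, left 1 gene higher (Mettl14) and 1 lower (Fto), where 14.4% to 14.7% and 22.5% to 24.5% of all genes passed, and leaving out libraries gave 4 to 6 higher and 2 to 4 lower. For the 7 genes with 2 KD libraries, leaving out 1 of them left a lone KD library that was assumed to vary like the NC libraries, from which the spread then came. Across single genes, 583 of 630 other alternative results kept their direction and side of the threshold, and 1353 of 1410 with 1 library left out. Fto had 0 counts in KD and passed the filter on low counts only through NC, so its call adds no support. Counts of Mettl14 were low in KD and NC, and Wtap had copies elsewhere in the genome. The part of depth and of the copies in these values was not tested.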
